A study of Mus musculus with 8 samples.

Results

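The Hox genes encode homeodomain transcription factors that lie in 4 clusters in the mouse genome. All 39 of them were taken from a table of 23337 genes by their symbols, without regard to their values. Kidneys were taken at E13.5 (E for embryonic day, counted from the vaginal plug) from embryos of a mixed C57BL/6 background, and gave 2 groups of 4 libraries. Mutant kidneys were Foxd1Cre;Smo(flox/-), from matings of Foxd1Cre(Smo+/-) with Smo(flox/flox) mice. They carried a Cre driven by Foxd1, a gene of renal stromal progenitors, together with 1 floxed and 1 null allele of Smo, the gene of the hedgehog signal transducer Smoothened. Control kidneys were Smo(flox/+), with a floxed and a wild-type copy, and their labels name no Cre. The floxed copy was thus common to both groups, while mutant cells of every lineage were short of 1 functional Smo allele and Cre was also present, and the comparison is between these whole genotypes. Samples carry numbers from 1 to 4 in each group. Whether each was a separate embryo or a pool is not stated, so p-values measure the spread between these samples, which may be technical.

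Hox genes are numbered by paralog group, from 1 at the 3′ end to 13 at the 5′ end of a cluster, and genes of the higher groups are in general expressed further towards the tail of the embryo. The metanephric kidney forms at the level of the hind trunk. In mice the paralogs Hoxa11, Hoxc11 and Hoxd11 act redundantly in the metanephric mesenchyme and are needed for Six2 and Gdnf expression there, and the Hox10 paralogs are needed for normal cortical stroma. Hoxb7 is expressed in the ureteric bud and its promoter is widely used to drive transgenes in that epithelium.

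Libraries held 10288191 to 13494079 reads in genes. Smo was at 509 to 553 normalised counts in mutants and 2152 to 2294 in controls, and Foxd1 at 469 to 738 in mutants and 1038 to 2039 in controls, so every library lay on the side of its label. The kind of Cre allele is not named, which limits what the Foxd1 level can check. Kidney markers were present throughout (Six2 1944 to 2255 in mutants and 1499.9 to 1893 in controls, Ret 788 to 952 in mutants and 604 to 792 in controls). Markers of other tissues varied between libraries. The summed level of 8 skeletal muscle markers, none of them at 0 in all libraries, was 1799 in mutant 2 and 123 to 272 in the other mutants, and it was 3298 in control 2, 572 in control 1, 279 in control 3 and 121 in control 4. The summed level of 4 liver markers was 699 in control 1 and no more than 136 elsewhere. All these are bulk values, in which a change in the share of a cell type and a change in RNA per cell cannot be told apart.

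The Hox10 genes were the main contributors to the Hox signal. Levels of different genes were compared as normalised count per kb of exon, with exons joined over all transcripts of a gene. On that scale the Hox10 group alone held 26.7% of the summed Hox level in mutants and 28.0% in controls, and the Hox9 group held 14.5% in mutants and 14.3% in controls. The Hox11 group held 9.74% in mutants and 9.84% in controls. The Hoxb cluster held 34.9% of the sum in mutants and 32.3% in controls, ahead of Hoxd (24.8% in mutants and 24.9% in controls), Hoxa (24.0% in mutants and 25.3% in controls) and Hoxc (16.3% in mutants and 17.4% in controls).

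The 2 highest genes were Hoxa10, at 559.7 ± 12.2 per kb in mutants and 546 ± 23.0 in controls, and Hoxc10, at 526 ± 40.3 in mutants and 521 ± 25.7 in controls (SD, n = 4 per group). Their ranges over the 8 libraries overlapped each other. Both lay above the third gene, Hoxb8 (388 ± 43.9 per kb in mutants and 319 ± 25.2 in controls), without overlap. Before division by exon length Hoxc10 (924 to 1102 normalised counts) and Hoxb8 (749 to 1154) did overlap. That gap thus depends on the exon lengths used, and the annotation behind the counts is not given. Then came Hoxd10, Hoxb9, Hoxb7, Hoxa11, Hoxd9 and Hoxb3, between 254 and 357 per kb in mutants and between 228 and 327 in controls, and each neighbour in that order overlapped the next. Of 38 pairs of neighbours in the order of all 39 genes, 4 did not overlap: Hoxc10 over Hoxb8, Hoxb3 over Hoxb6, Hoxc8 over Hoxa7 and Hoxd1 over Hoxd13. The order within the other pairs of neighbours is not resolved by these libraries, and genes further apart in the order were not compared.

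The signal ended sharply at the 5′ side of the clusters, and at a different gene in each. In the Hoxa cluster it ended after Hoxa11, at 311 ± 16.1 per kb in mutants and 281 ± 25.5 in controls, against 1.11 ± 1.08 in mutants and 0.95 ± 1.89 in controls for Hoxa13, a gene of the limb tip and the end of the urogenital tract. In the Hoxb cluster it ended after Hoxb9, and Hoxb13, a gene of the tail and prostate, had 0 reads in all 8 libraries, which allows up to 2.55 to 3.36 normalised counts in a library (3 reads, counting error only). In the Hoxc cluster the fall came in 2 steps, with Hoxc10 at over 500 per kb, Hoxc11 at 34.5 ± 6.33 in mutants and 34.5 ± 10.7 in controls, and Hoxc12 and Hoxc13 at 1 and 3 reads over all libraries. The Hoxd cluster reached furthest: Hoxd11 had 177 ± 4.91 per kb in mutants and 174 ± 23.0 in controls, Hoxd12 125 ± 7.92 in mutants and 86.8 ± 19.6 in controls, and Hoxd13, a gene of the digits and genital tubercle, 8.36 ± 0.93 in mutants and 8.18 ± 3.66 in controls.

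At the 3′ side Hoxb1, a hindbrain gene, was low, at 2.86 ± 1.70 per kb in mutants and 2.22 ± 2.35 in controls, and Hoxd1 was at 20.5 ± 3.38 in mutants and 18.9 ± 2.49 in controls. From group 2 to group 9 the Hoxb gene had a higher mean than the Hoxa and Hoxc genes of the same number, except in group 5. Hoxb3, for instance, was at 254 ± 22.8 per kb in mutants and 228 ± 6.92 in controls, and Hoxa3, a gene of the pharyngeal arches, at 31.8 ± 3.85 in mutants and 35.7 ± 1.75 in controls. In group 4 Hoxd4 (171 ± 16.5 in mutants and 154 ± 22.6 in controls) was at a higher mean than Hoxb4 (99.1 ± 8.70 in mutants and 88.4 ± 7.94 in controls), and in group 5 Hoxa5 (133 ± 11.9 in mutants and 126 ± 13.1 in controls) was at a higher mean than Hoxb5 (96.0 ± 12.4 in mutants and 82.0 ± 8.21 in controls). Values of Hoxa3, Hoxb2, Hoxb3, Hoxd3, Hoxd4 and Hoxa11 are less certain, because 27.1% to 62.8% of their exon bases also belong to exons of other annotated genes, and strand use in counting is not stated.

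**Figure D1:**
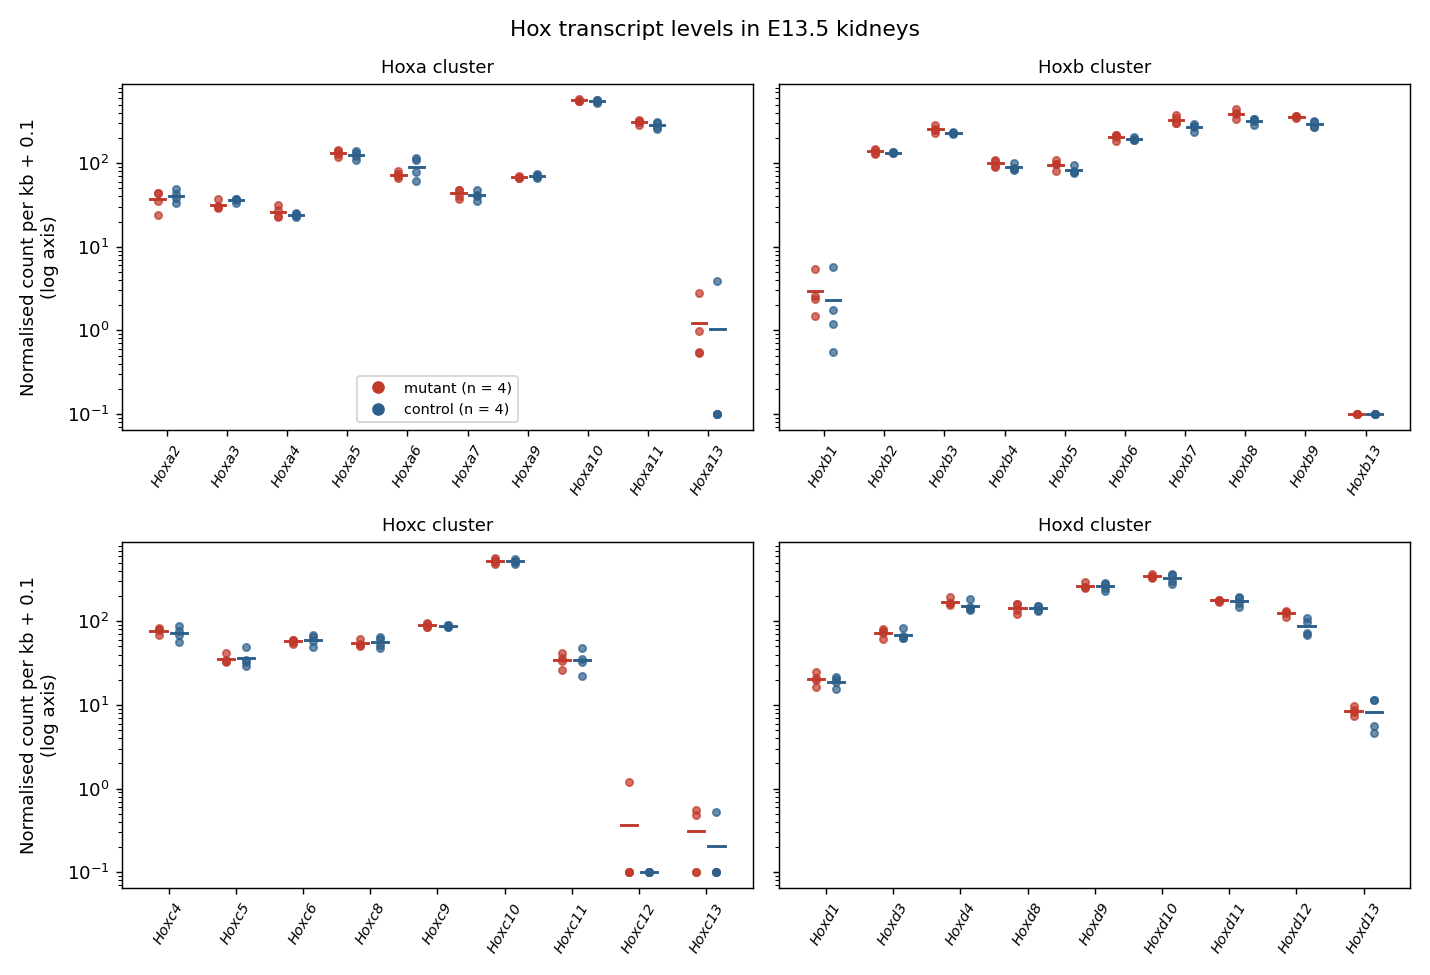
Level of 38 of the 39 Hox genes in 4 mutant and 4 control kidneys, by cluster and in order of paralog group. The vertical axis is normalised count per kb of exon plus 0.1 on a log axis, points are libraries and bars are group means. Hoxa10 and Hoxc10 are the highest, and Hoxb13 is at 0 in all 8 libraries.

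The comparison of mutants with controls asks whether the mutant genotype as a whole goes with a change in Hox expression in the whole kidney. It cannot set loss of Smo from the stromal lineage apart from the null allele and Cre. Of the 39 genes 34 had a mean of at least 10 normalised counts and were tested by limma among 13692 genes. None of the 34 passed an adjusted p of 0.05 by limma with Benjamini-Hochberg adjustment, where 0.57% of all tested genes did, 0.124% as higher and 0.446% as lower in mutants. With edgeR's quasi-likelihood test 0 of the 34 passed (0.577% of all genes) and with DESeq2 2 passed, Hoxb9 and Hoxd12 (1.56% of all genes). The same 2 are called in the authors' deposited table, where 0.614% of all genes are. With TMM scaling 1 Hox gene, Hoxb9, was called by limma (0.606% of all genes). At an unadjusted limma p under 0.05 there were 5 genes, Hoxb9, Hoxd12, Hoxb7, Hoxb8 and Hoxb3, all with higher values in mutants, against 3.53% of all tested genes that were higher at that level. At a bound of 1.5-fold the intervals were about as narrow as those of all genes, and at 1.25-fold a smaller share lay within the bound. For 29 of 34 the 95% interval of the fold change lay within 1.5-fold in either direction, which held for 82% of all tested genes, and for 15 it lay within 1.25-fold (62.6% of all genes).

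On the log2(normalised count + 1) scale, fold changes of mutants relative to controls ran from -0.28 for Hoxa6 to 0.55 for Hoxd12. They were above 0 for 27 of the 34 genes and below 0 for 7, with a median of 0.07. Of all tested genes 51.9% were above 0, with a median of 0.0037. Genes of a cluster are neighbours, and some share exons, so the 27 are not separate pieces of evidence. By cluster, 8 of 8 tested Hoxb genes and 9 of 9 Hoxd genes were above 0, as were 6 of 10 Hoxa and 4 of 7 Hoxc genes. Without controls 1 and 2, the controls with the highest muscle and liver marker sums, 20 of 34 were above 0, and all 8 Hoxb genes were among them. Mutant 2, with the highest muscle marker sum among mutants, was kept in that fit.

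**Figure D2:**
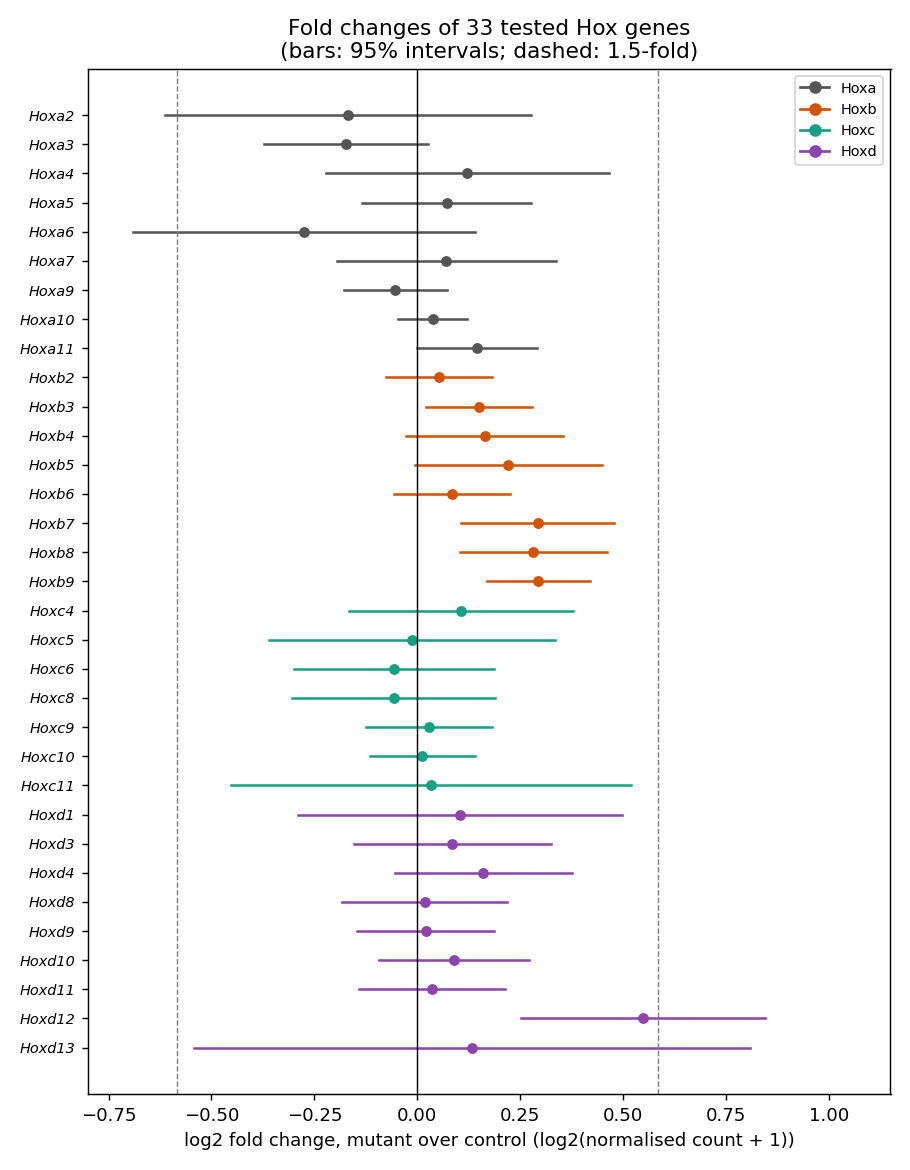
Log2 fold change of mutant over control for 33 of the 34 tested Hox genes, with 95% intervals from limma, by cluster and paralog group. Dashed lines mark 1.5-fold. All 8 Hoxb genes lie right of 0, with Hoxb7, Hoxb8 and Hoxb9 between 0.28 and 0.29, and Hoxd12 has the highest value at 0.55.

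Hoxb9, which belongs to a paralog group that patterns the thoracic skeleton and flank, came closest to the threshold. It was at 942, 904, 939 and 891 normalised counts in mutants 1 to 4, and at 701, 697, 795 and 811 in controls 1 to 4. Every mutant lay above every control. The means were 919 ± 25.0 in mutants and 751 ± 60.7 in controls, with a log2 fold change of 0.29 (SE 0.057, 95% interval 0.17 to 0.42, limma adjusted p = 0.0504). By exact permutation (two-sided) p was 0.0286, which is the lowest value among 70 arrangements. The authors' deposited table lists Hoxb9 with a log2 ratio of 0.29 and an adjusted p of 0.00834. Controls 1 and 2 held the lowest Hoxb9 values and control 4 the highest of the controls. Leaving them out thus had to lower and to raise the fold change, respectively. Without controls 1 and 2 the log2 fold change of Hoxb9 was 0.19 (limma adjusted p = 0.229). Leaving out control 4 brought it past the threshold (0.33, limma adjusted p = 0.0145, with 1.35% of all genes called), and without any other single library it was not called.

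Its neighbours Hoxb8 and Hoxb7 had fold changes of like size with more spread. Hoxb7 was at 572, 539, 465 and 466 in mutants 1 to 4, and at 455, 417, 425 and 368 in controls 1 to 4. These ranges did not overlap, and mutants 3 and 4 lay just above control 1. Its log2 fold change was 0.29 (SE 0.084, 95% interval 0.11 to 0.48, limma adjusted p = 0.215). Hoxb8, which in mice also acts in myeloid progenitors, was at 1154, 1052, 1013 and 875 in mutants 1 to 4, and at 896, 883, 830.3 and 749 in controls 1 to 4. Here mutant 4 lay below controls 1 and 2, and the log2 fold change was 0.28 (SE 0.081, 95% interval 0.10 to 0.46, limma adjusted p = 0.217). Among the 34 tested genes Hoxb7, Hoxb9 and Hoxd12 had groups that did not overlap, all with mutants higher, against 2.31% of all tested genes with mutants higher and 5.31% in either direction.

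The summed level of ureteric epithelium markers varied between libraries much as Hoxb7 and Hoxb8 did, and so did that of nephron epithelium markers. The summed level of 6 markers (Ret, Wnt11, Wnt9b, Calb1, Gata3 and Cdh16, none of them at 0 in any library) was 6886, 6141, 5855 and 5108 in mutants 1 to 4, and 6176, 5067, 4716 and 4510.1 in controls 1 to 4. In both groups library 1 was highest and library 4 lowest, which is also the order of Hoxb8. Not all 6 followed it: Ret was highest among controls in control 4 (792), and Wnt9b was lowest of all in mutant 1 (296). The order was not particular to ureteric markers. Nephron epithelium markers (Lhx1, Jag1, Pax8, Wt1, Nphs1 and Podxl) summed to 5932, 5562, 4996 and 4955 in mutants 1 to 4. In controls 1 to 4 they summed to 5911, 5634, 5193 and 4899. None of the 6 ureteric markers was called, where 0.57% of all tested genes were, and their median log2 fold change was 0.21. With the mean log2 level of the ureteric markers as a covariate, a setting chosen after seeing the data, the log2 fold change was 0.16 for Hoxb7 (limma adjusted p = 0.400) and 0.13 for Hoxb8 (limma adjusted p = 0.360), while it was 0.35 for Hoxb9 (limma adjusted p = 0.0320), with 0.73% of all genes called. That setting moved the values of Hoxb7 and Hoxb8 by over 1.5 times. No such fit was made with the nephron epithelium markers, and the part of either cell type in the Hoxb values was not tested further.

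**Figure D3:**
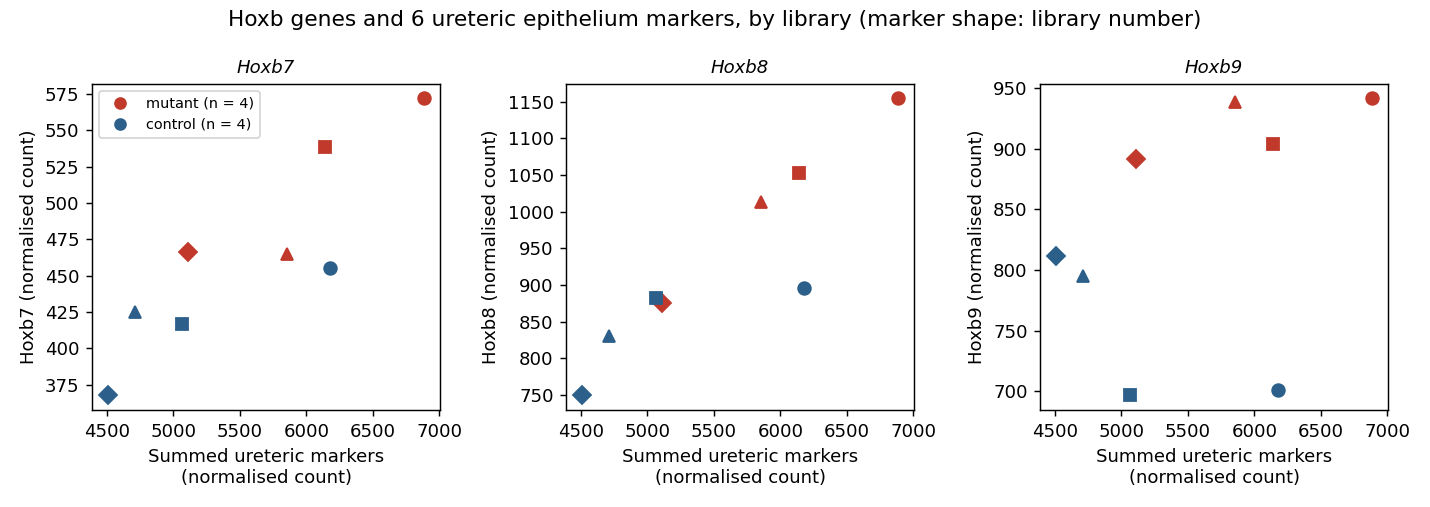
Hoxb7, Hoxb8 and Hoxb9 (vertical axes, normalised counts) against the summed level of 6 ureteric epithelium markers (horizontal axis, normalised counts), with 1 point per library. Mutant 1 is highest on both axes for Hoxb7 and Hoxb8, and control 4 lowest, while controls 1 and 2 have the lowest Hoxb9 values at marker sums of 6176 and 5067.

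The remaining Hoxb genes differed less. Hoxb3 was at 1088, 1043, 1209.8 and 981 in mutants 1 to 4, and at 939, 959, 1009 and 977 in controls 1 to 4. Mutant 4 lay among the controls, and the log2 fold change was 0.15 (SE 0.059, 95% interval 0.02 to 0.28, limma adjusted p = 0.463). Log2 fold changes were 0.22 for Hoxb5, a gene of lung and gut mesenchyme (limma adjusted p = 0.590), 0.16 for Hoxb4, known from blood progenitors (0.670), 0.08 for Hoxb6 (0.809) and 0.05 for the hindbrain gene Hoxb2 (0.884). Along the cluster the values were thus 0.05, 0.15, 0.16, 0.22, 0.08, 0.29, 0.28 and 0.29 from Hoxb2 to Hoxb9. The summed Hoxb level was 5232, 4967, 5117 and 4485 in mutants 1 to 4, and 4282, 4234, 4329.6 and 4294 in controls 1 to 4. All mutants exceeded all controls, and the controls spread little, with an SD of 39.4 against 329 in mutants.

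Hoxd12, of a group that acts in the limb and lower trunk, had the largest fold change among the 34. It was at 318, 289, 336 and 323 normalised counts in mutants 1 to 4, and at 181, 176, 245 and 277 in controls 1 to 4. All mutants lay above all controls, and controls 1 and 2 lay well below controls 3 and 4. The means were 316 ± 20.1 in mutants and 219.8 ± 49.6 in controls, a log2 fold change of 0.55 (SE 0.135, 95% interval 0.25 to 0.84, limma adjusted p = 0.127, exact permutation p = 0.0286). The authors' deposited table lists Hoxd12 with a log2 ratio of 0.53 and an adjusted p of 0.0483. Leaving out controls 1 and 2, the lowest libraries, had to lower the fold change, and leaving out control 4, the highest control, had to raise it. Without controls 1 and 2 the log2 fold change of Hoxd12 was 0.28 (limma adjusted p = 0.346), and without control 4 it was 0.67 (limma adjusted p = 0.0173). With a muscle marker score as a covariate it was 0.48 and passed the threshold (limma adjusted p = 0.0356, with 0.876% of all genes called). Without both libraries numbered 2, those with the highest muscle marker sum in each group, no Hox gene was called by limma, with 0.0146% of all genes called.

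**Figure D4:**
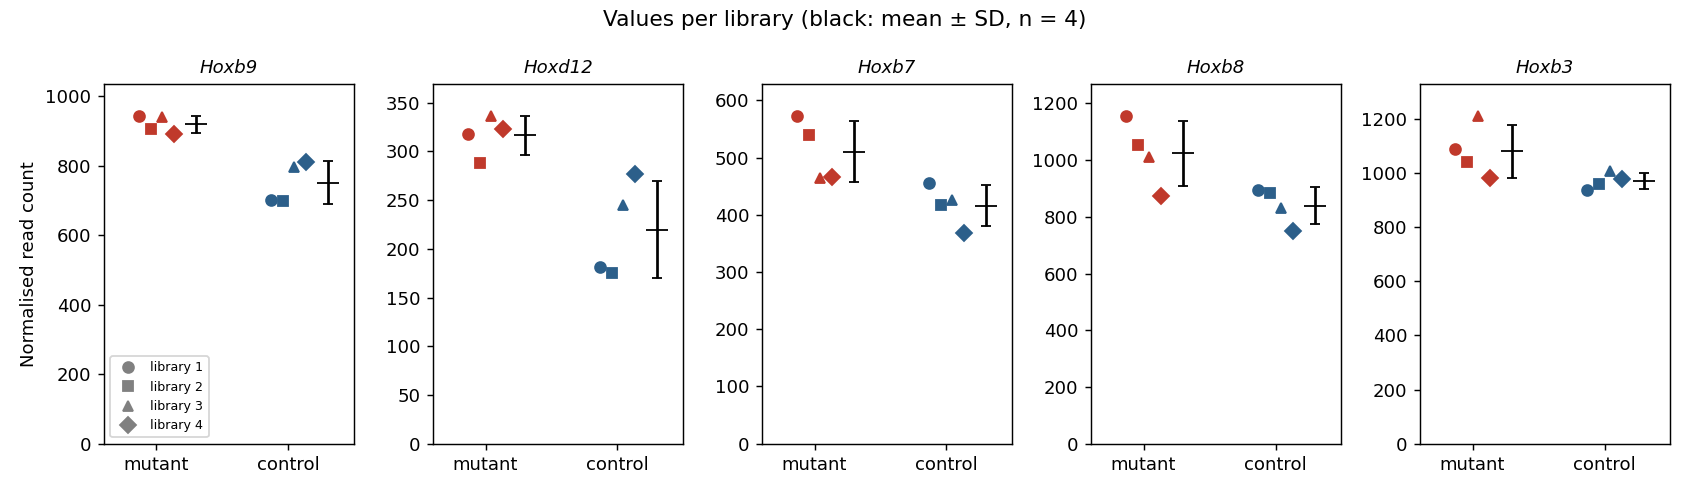
Normalised counts per library of the 5 Hox genes with an unadjusted limma p under 0.05, with axes from 0. Colours are groups, marker shapes are library numbers, and black bars are mean ± SD (n = 4). Mutants and controls do not overlap for Hoxb9, Hoxd12 and Hoxb7, and controls 1 and 2 are the lowest libraries for Hoxd12 at 181 and 176.

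Promoter windows are shown for the gene with the largest fold change, Hoxd12, and for Hoxb8, the member of the Hoxb7 to Hoxb9 run with a window in the RefSeq table. They span 250 bases before to 50 after the start, from RefSeq GRCm38.p6. Hoxd12 is chr2:74674763-74675062 and Hoxb8 is chr11:96281655-96281954, both on the plus strand and printed 5′ to 3′. Capitals mark matches to the motifs searched.
Hoxd12: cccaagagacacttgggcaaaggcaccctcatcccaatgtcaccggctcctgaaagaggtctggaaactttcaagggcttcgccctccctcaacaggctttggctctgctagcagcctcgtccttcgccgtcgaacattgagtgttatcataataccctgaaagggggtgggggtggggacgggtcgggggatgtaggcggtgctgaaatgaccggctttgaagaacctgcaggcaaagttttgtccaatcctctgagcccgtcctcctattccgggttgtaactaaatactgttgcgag
Hoxb8: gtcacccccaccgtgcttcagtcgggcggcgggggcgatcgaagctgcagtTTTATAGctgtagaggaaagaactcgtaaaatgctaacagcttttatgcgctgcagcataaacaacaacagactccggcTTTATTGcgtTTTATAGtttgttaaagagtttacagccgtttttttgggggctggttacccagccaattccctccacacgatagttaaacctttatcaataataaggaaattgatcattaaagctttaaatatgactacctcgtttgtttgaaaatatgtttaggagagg

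The 5 motifs were searched on both strands in 24 windows of 22 Hox genes and in all 32851 windows of the table. TTTATNG, the core bound by Cdx and posterior Hox factors, was in 2 Hox windows, those of Hoxb8 and Hoxd4, and in 10.9% of all windows. In Hoxb8 it occurred at 3 places, starting at bases 52, 131 and 141, of which the first and the last overlapped a TATAAA match on the other strand. TATAAA was in 4 Hox windows (Hoxa10, Hoxb8, Hoxd4 and Hoxd13) and in 13.6% of all windows. AGGTCA, a part and not the whole of a retinoic acid receptor element, was in 7 Hox windows and in 16.3% of all windows. The 7 were those of Hoxa5, Hoxb4, Hoxc4, Hoxd3, Hoxd4, Hoxd8 and Hoxd10. TGATTNAT, a joint Pbx and Hox site, was in 2 (Hoxa2 and Hoxd11) and in 3.22% of all. GACCACCCA, the core bound by the Gli factors of the hedgehog pathway, was in none of the 24 and in 0.253% of all windows. These are matches of letters in short windows and were not tested for binding.

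For Hoxd10 and Hoxd11 controls 1 and 2 were again the lowest libraries, with fold changes nearer 0. Hoxd11, an essential gene of the nephrogenic mesenchyme together with its paralogs, was at 765, 719.9, 762 and 743 in mutants 1 to 4, and at 619, 688, 821 and 808 in controls 1 to 4. The mutants lay between the low and the high pair of controls, with a log2 fold change of 0.04 (95% interval -0.14 to 0.21, limma adjusted p = 0.951). Hoxd10 was at 599.7, 613, 673 and 629 in mutants 1 to 4, and at 510.4, 548, 656 and 664 in controls 1 to 4, with a log2 fold change of 0.09 (95% interval -0.09 to 0.27, limma adjusted p = 0.845). Without controls 1 and 2, as the lowest libraries, the fold changes had to fall, and were -0.12 for Hoxd11 and -0.07 for Hoxd10. The spread of Hoxd11 was 2.77% of the mean in mutants and 13.2% in controls, where counting alone gives 3.67%. Nephron progenitor markers (Six2, Cited1, Eya1, Meox1 and Crym, none at 0) summed to 5351, 5739, 5650.0 and 6078 in mutants 1 to 4, and to 4337, 4418, 4740.4 and 5402 in controls 1 to 4. Controls 1 and 2 were thus the lowest in this sum, and they were so for Six2 and Eya1. Cited1 was instead lowest in control 4 (275), Crym in control 3 (536) and Meox1 in mutant 1 (330). The part of nephron progenitors, and of the muscle and liver markers in controls 1 and 2, in the Hoxd values was not tested beyond the fits given.

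Log2 fold changes of the other Hoxd genes were 0.13 for Hoxd13, 0.02 for Hoxd9, 0.02 for Hoxd8, 0.16 for Hoxd4, 0.09 for Hoxd3 and 0.10 for Hoxd1 (limma adjusted p from 0.744 to 0.977). Hoxd13 was at 18.1 to 23.6 in mutants and 11.4 to 28.2 in controls.

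The Hoxa cluster lies on chromosome 6, 22.4 Mb from Smo, and none of its genes was called. Hoxa11 was at 731, 660.3, 744 and 707 in mutants 1 to 4, and at 578, 613, 682 and 702 in controls 1 to 4. Mutant 2 lay below controls 3 and 4, and the log2 fold change was 0.15 (SE 0.067, limma adjusted p = 0.582). Of the exon bases of Hoxa11, 35.0% overlap those of the antisense transcript Hoxa11os, which the table lists as Hoxa11as. Hoxa11as was at 469 to 537 in mutants and 419 to 471 in controls, with a log2 fold change of 0.21 (limma adjusted p = 0.210). Reads from the overlap cannot be told apart without strand. Hoxa10 had the narrowest interval of the 34, at 1798 to 1888 in mutants and 1689 to 1856 in controls (log2 fold change 0.04, 95% interval -0.05 to 0.12, limma adjusted p = 0.868).

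The lowest fold changes were also in this cluster. Hoxa6 was at 64.0, 57.5, 61.6 and 69.8 in mutants 1 to 4, and at 53.6, 100.3, 67.8 and 94.0 in controls 1 to 4, with a log2 fold change of -0.28 (95% interval -0.69 to 0.14, limma adjusted p = 0.791). The control values straddled all mutant values. Hoxa3 was at 179.5, 175, 225 and 185 in mutants 1 to 4, and at 199, 220.2, 222 and 217 in controls 1 to 4, with a log2 fold change of -0.17 (95% interval -0.37 to 0.03, limma adjusted p = 0.663). Mutant 3 was the highest library of all, and the other 3 mutants were below every control. Other values were -0.17 for the second arch gene Hoxa2, -0.05 for Hoxa9, 0.07 for Hoxa5 and Hoxa7, and 0.12 for Hoxa4, with limma adjusted p from 0.878 to 0.929.

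The Hoxc cluster gave fold changes closest to 0. Hoxc10 was at 924, 967, 1102 and 1025 in mutants 1 to 4, and at 990.1, 930.4, 1011 and 1047 in controls 1 to 4, and the groups overlapped throughout (log2 fold change 0.01, 95% interval -0.12 to 0.14, limma adjusted p = 0.975). Hoxc9, which sets thoracic identity of motor neurons, had a log2 fold change of 0.03 (95% interval -0.12 to 0.18). Hoxc11 was at 53.2 to 83.8 in mutants and 44.2 to 96.8 in controls, with a log2 fold change of 0.03 (95% interval -0.45 to 0.52, wide enough to hold a 1.43-fold increase). Hoxc4, Hoxc5, Hoxc6 and Hoxc8 had log2 fold changes from -0.06 to 0.11 (limma adjusted p from 0.891 to 0.990).

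As a group, the 3 Hox11 genes summed to 1564, 1433, 1579 and 1534 normalised counts in mutants 1 to 4, and to 1241, 1368, 1574 and 1607 in controls 1 to 4. The mutant sums lay within the range of the controls. The 3 Hox10 genes summed to 3345, 3378, 3589 and 3542 in mutants 1 to 4, and to 3189.8, 3239, 3499 and 3567 in controls 1 to 4, again within reach of each other. The 4 Hox9 genes summed to 2031 to 2150.5 in mutants and 1833 to 1986 in controls, without overlap, and Hoxb9 had the highest fold change of the 4.

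The 5 genes below the filter were Hoxa13, Hoxb1, Hoxb13, Hoxc12 and Hoxc13. Hoxa13 was at 6.68, 1.06, 1.12 and 2.15 in mutants 1 to 4, and at 9.36, 0.00, 0.00 and 0.00 in controls 1 to 4. The library numbered 1 was thus the highest of each group. Hoxb1 ranged from 3.22 to 12.3 in mutants and from 1.03 to 13.2 in controls. At this depth none of the 5 was tested for a difference in the reported fit.

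The median spread between libraries was somewhat larger for Hox genes than for genes at large, in sets that were not matched on level. Among 27 members with a mean of at least 100, the median coefficient of variation was 7.87% in mutants and 9.07% in controls, where all 10300 such genes had medians of 5.29% in mutants and 6.01% in controls. Counting alone gives 2.35% for Hoxa10 to 9.44% for Hoxc5 among these members, and its part in the gap was not tested. Hoxd12 and Hoxd11 spread more in controls (22.6% and 13.2%) than in mutants (6.34% and 2.77%). The reverse held for Hoxb2, at 7.42% in mutants and 1.46% in controls, and for Hoxb3, at 8.97% in mutants and 3.03% in controls. Control 1 was the lowest library for 10 of the 34 genes and control 2 for 7, while mutant 3 was the highest for 9 and mutant 1 and control 4 for 8 each.

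Noncoding transcripts of the clusters were mostly low. Of 13 listed transcripts found among the genes 5 were tested, with a median log2 fold change of 0.10. None was called, where 0.57% of all tested genes were. Gm53, a transcript of the Hoxb cluster, was at 123, 137, 176 and 161 in mutants 1 to 4, and at 111, 100.3, 137 and 149 in controls 1 to 4 (log2 fold change 0.27, limma adjusted p = 0.699). The row of Mir196a-1, a microRNA gene of the same cluster, was at 22.9, 31.9, 67.2 and 49.4 in mutants 1 to 4, and at 25.5, 24.8, 54.3 and 52.7 in controls 1 to 4. Libraries 3 and 4 were higher than libraries 1 and 2 in both groups. These poly(A)-selected libraries do not measure the mature microRNA. Hotair, the antisense transcript between Hoxc11 and Hoxc12, was at 8.52 to 9.67 in mutants and 0.85 to 13.6 in controls and was not tested.

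The TALE cofactors are the Pbx, Meis and Pknox homeodomain proteins that bind DNA together with Hox proteins. Among 9 of them none was called, where 0.57% of all tested genes were, and the median log2 fold change was 0.02. Pbx3 was at 616 to 737 in mutants and 547 to 624 in controls (log2 fold change 0.21, limma adjusted p = 0.284). Meis1, Meis2, Pbx2 and Pknox1 had log2 fold changes from -0.05 to 0.05. The 6 markers of renal stroma summed to 6904 to 8957 in mutants and 9541 to 10887 in controls, and 1 of them, Foxd1, was called lower. They did not move together, with 4 fold changes below 0 and 2 above. Log2 fold changes were -1.29 for Foxd1, -0.25 for Pdgfra, -0.05 for Meis1, 0.02 for Tcf21 and 0.11 for Tbx18. The median over all 6 was -0.15, and the marker not listed was below it.

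Of 10 partners and targets of the Hox11 proteins 2 were called, both higher in mutants, where 0.124% of all tested genes were called higher. Pax2, which forms a complex with Eya1 and Hox11 proteins, was at 1939, 1849.8, 1837 and 1651 in mutants 1 to 4, and at 1488, 1346, 1469.7 and 1541 in controls 1 to 4 (log2 fold change 0.32, limma adjusted p = 0.0332, every mutant above every control). Itga8, an integrin subunit that can be induced by Hox11 genes, was at 2041, 2082, 2138 and 1933 in mutants 1 to 4, and at 1734, 1589.9, 1695 and 1572 in controls 1 to 4 (log2 fold change 0.31, limma adjusted p = 0.0126). Values for Six2 were 1944 to 2255 in mutants and 1499.9 to 1893 in controls (log2 fold change 0.35, limma adjusted p = 0.0693), and those for Gdnf were 854 to 985 in mutants and 678 to 959 in controls (0.12, limma adjusted p = 0.812). Of the 10 genes 9 had fold changes above 0, with a median of 0.12. Six2 and Eya1 are also on the list of nephron progenitor markers, whose sums are given above, and the part of those cells in these values was not tested.

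No regulator or neighbour of the clusters was called, where 0.57% of all tested genes were. Of 24 tested Polycomb, Trithorax and related regulators, which keep Hox chromatin silent or active, none was called, with a median log2 fold change of 0.03. The smallest limma adjusted p among them was 0.426, for Ezh1, a Polycomb methyltransferase (log2 fold change 0.16). Cdx2, which controls Hox genes in the early tail bud, was at 0 in every library. Of 16 tested genes flanking the clusters none was called, and the median was -0.02. Skap2, beside the Hoxa cluster, was at 264 to 299.8 in mutants and 311 to 333 in controls, without overlap (log2 fold change -0.17, limma adjusted p = 0.398). Of all tested genes 5.31% had groups that did not overlap, in either direction. Evx2, at the 5′ end of the Hoxd cluster, had no reads in any library.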

How the data were processed

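Poly(A)-selected RNA of E13.5 kidneys, 500 ng per library, was sequenced after Illumina TruSeq preparation, per the labels' protocols. TopHat2 2.0.12, HTSeq and DESeq2 1.4.5 with build mm10 (GRCm38) are named in the submitters' processing notes. The gene annotation and strand use are not given in the sources used here. The authors deposited signal values (normalised counts, each library scaled by a size factor of its own), with mean signal per group, a ratio of means (fold), its log2 and p-values, per the file headers. All values (100%) were whole multiples of the library's smallest value within 0.01, so whole reads were recovered.

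Log2(value + 1) was fitted in R 4.3.3 with limma 3.58.1 (trend on mean level), genotype as the single term, for genes with a mean of at least 10, two-sided, with Benjamini-Hochberg adjustment at 0.05 over all of them. Recovered reads were tested with edgeR 4.0.16 and DESeq2 1.42.0 as alternatives. Members, lists and alternatives were chosen with earlier results of these data known. Members and list genes may be named by rule, and 1 member and 1 list gene are counted but not reported here. In a list the smallest p come first, and some others were named after their values were seen. Positions are RefSeq GRCm38.p6, exon lengths GENCODE vM21 on GRCm38. Libraries of a group differed by more than counting error, with chi-square ratios to the degrees of freedom of 2.89 to 10.98. On counts simulated for 13692 genes in the mutant and control design, 38% of 50 genes with a 1.25-fold change passed, 50% at 1.5-fold, 86% at 2-fold and 96% at 4-fold, with 12 false among 147 calls. Figures were drawn with matplotlib 3.10.9.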

Additional observations from a re-analysis of the deposited data

Results flagged for a closer look

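Hoxd9 in mutant 1 stood at 627.4 normalised counts, against 541 to 549.9 in the other 3 mutants, a gap of 0.897 of the range of the mutant group. It was the single such library in 68 groups of 4 values (34 genes in 2 groups), where chance gives about 3.4, or 1 in 20.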

How the results depend on the processing

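Across 19 alternative settings 17 of 34 Hox genes kept the sign of their fold change, and all 8 Hoxb genes were above 0 in each. No Hox gene was called by limma as reported, 1 with a pseudocount of 5 or TMM scaling, and 2 with DESeq2, with a muscle covariate and with a ureteric covariate (added after seeing the data). Without single libraries 0 to 2 were called, the 2 (Hoxb9 and Hoxd12) without control 4. Of all genes 78 were called as reported, 214 with DESeq2, 120 with the muscle covariate, 18 to 185 without single libraries, 29 without controls 1 and 2, and 2 without both libraries numbered 2. Unadjusted p was under 0.05 for 5 Hox genes as reported, 8 with the ureteric covariate and 4 to 9 without single libraries.

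No label says that a library number marks a shared litter or day, and the samples were treated as unpaired. Deviations of same-numbered libraries from their group means correlated at 0.325, 0.287, 0.294 and 0.064, and those of other pairs between -0.325 and 0.154. Mutants 1 to 3 correlated best with the control of their own number and mutant 4 with control 3, a hint of pairing from the data for 3 of 4 numbers that the design does not give. With the replicate block 232 of all genes were called, among them 4 Hox genes: Hoxb7 (limma adjusted p = 0.0367), Hoxb8 (0.00968), Hoxb9 (0.0260) and Hoxd12 (0.0218).

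Log2 fold changes of the genes reported here changed sign as follows. Without controls 1 and 2 they were -0.0111 for Hoxa10, 0.1106 for Hoxc8, -0.0382 for Hoxc10, -0.2733 for Hoxc11, -0.0333 for Hoxd1, -0.0338 for Hoxd3, -0.0705 for Hoxd10 and -0.1235 for Hoxd11. Without both libraries numbered 2 they were -0.0023 for Hoxc10 and -0.0326 for Hoxd13. With the ureteric covariate they were 0.0814 for Hoxa2, -0.0855 for Hoxa7, 0.1199 for Hoxc5, -0.057 for Hoxd8 and -0.0538 for Hoxd9, and with the muscle covariate -0.0109 for Hoxc10, -0.0473 for Hoxc11 and -0.0071 for Hoxd8. By edgeR and DESeq2 that of Hoxc11 was -0.0009 and -0.0007. Without single libraries ranges were -0.2684 to 0.0199 for Hoxa2, -0.0001 to 0.1426 for Hoxa7, -0.0032 to 0.2072 for Hoxc4, -0.1164 to 0.1432 for Hoxc5, -0.1481 to 0.0071 for Hoxc6, -0.1336 to 0.0102 for Hoxc8, -0.0334 to 0.0511 for Hoxc10, -0.1638 to 0.2072 for Hoxc11, -0.0363 to 0.0952 for Hoxd8, -0.0406 to 0.0629 for Hoxd9, -0.043 to 0.0922 for Hoxd11 and -0.0933 to 0.3197 for Hoxd13. The cause was not tested. Depth limits the 5 untested genes, and 4 libraries per group limit small changes.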
